A study of Drosophila melanogaster with 28 samples.

Results

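The RNA of 8 errantivirus families was followed across whole ovaries of Drosophila melanogaster. The families gypsy, ZAM, Idefix, Tirant, '17.6', '297', gypsy5 and gypsy10 were taken by name from the deposited transposon tables, which list 176 families, and all 8 were present. Errantiviruses are LTR retrotransposons of the gypsy group that carry an env gene besides gag and pol. Several of them, among them gypsy, ZAM and Idefix, are known for activity in the follicle cells that surround the germline, where Piwi, loaded with piRNAs from the flamenco cluster, holds them down. Germ cells use a wider piRNA pathway, with dual-strand clusters marked by Rhino and an amplification loop in the perinuclear nuage.

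The study screened the ovary for genes of the germline piRNA pathway. In 18 libraries nos-GAL4, a driver active in germ cells, expressed double-stranded RNA from a UAS transgene against 1 gene each, and 2 libraries carried the same driver with double-stranded RNA against w, an eye pigment transporter gene that serves as the control. A further 2 libraries came from whole dissected ovaries whose genotype and driver are not given in the labels. Flies of every group lived at 25 °C with yeast paste as food, and the labels give no age. Since the driver acts in germ cells, the follicle cells of the same ovaries were not its target.

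The 18 target genes were ordered by their textbook role. Nuclear silencing was represented by piwi, which encodes the nuclear PIWI protein, CG3893 (asterix, a partner of Piwi in transcriptional silencing) and mael. The cluster factors were rhi, del and cuff, which together mark and transcribe dual-strand clusters. The biogenesis genes were armi, a helicase gene, zuc, the gene of the nuclease that forms piRNA ends, shu, a co-chaperone gene, and gasz, whose product sits on the outer mitochondrial membrane. The nuage genes were aub, a PIWI protein gene, the helicase genes vasa and spn-E, and tej and squ. The remaining targets were ars2 and U2A, which act in RNA processing and splicing, and Yb, a gene of the somatic branch of the pathway.

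Values are the scores the authors deposited, which are whole numbers per family. The sources used here do not state their unit. Whether they are scaled to element length is not stated either, so levels were compared between libraries and not between families. Genome-mapped reads ranged from 2026093 in the gasz library to 20185962 in the tej library, with 3831461 and 3037471 in the 2 w libraries. The lowest score of any of the 8 families in any library was 38. How far each target gene was depleted was not analysed here, so the knockdown labels were not checked. In the gene tables of the 2 ovary libraries, germline markers were plentiful (osk at 395 and 413 FPKM), as were follicle cell products (Cp38 at 1444 and 1484 FPKM), while 4 muscle markers summed to 144 and 158 FPKM and 3 fat body markers to 5.82 and 4.60 FPKM. Whether an errantivirus transcript came from follicle cells or germ cells cannot be told apart in whole ovaries, nor can fewer cells of a type and less RNA per cell. Related families such as '17.6' and '297' may share reads, because the sources used here do not state how reads were assigned to families.

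Pooled over the 8 errantivirus families, values 2-fold above the control were about as frequent in these germline knockdowns as over all families. Most of the errantivirus ones came from gypsy. Most germline comparison values were 2-fold higher. A score was called at 2-fold or more from the mean of the w libraries on the log2(score + 1) scale, with 1 library per knockdown and therefore no test. Of 144 pairs of errantivirus family and knockdown, 18 were at least 2-fold higher than w (12.5%), against 13.9% of 2862 pairs over all 159 families kept, and none was 2-fold lower (2.06% of all pairs). The family gypsy held 10 of the 18 higher errantivirus pairs, and ZAM, gypsy5 and gypsy10 held none. The pooled share therefore does not describe the other errantivirus families. Of all 159 families, 85 held none. Without families named for other species, 361 pairs over 119 families were 2-fold higher and 26 were 2-fold lower. The share higher was then larger than over all 159 families. Of 108 pairs of a germline comparison family (HeT-A, TAHRE, Burdock, HMS-Beagle, mdg3 and GATE) and a knockdown, 72 were at least 2-fold higher (66.7%). Of 396 pairs with 22 other gypsy-group families, 54 were (13.6%). These lists were chosen with earlier results of these data known, so their shares describe the data and are no independent test. The errantivirus count depended on the w libraries, with 29 pairs higher without w replicate 1, and 11 higher and 9 lower without w replicate 2. With median-ratio scaling the errantivirus count was 10 higher and 0 lower, where all families had 286 pairs higher and 89 lower. After quantile normalization it was 3 higher and 14 lower, where all families had 231 pairs higher and 198 lower. As deposited, all families had 397 pairs higher and 59 lower.

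**Figure D1:**
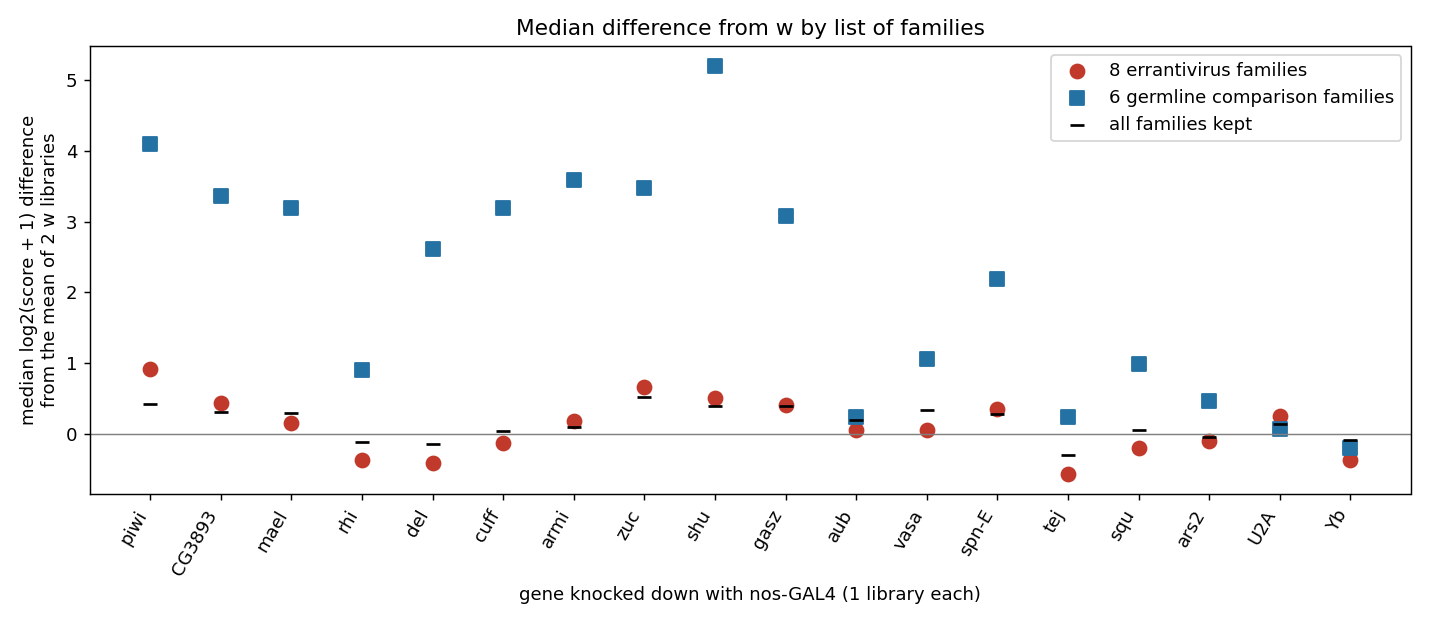
Median log2(score + 1) difference from the mean of the 2 w libraries (y axis) for each of 18 knockdowns (x axis, 1 library each). Circles are the 8 errantivirus families, squares the 6 germline comparison families and dashes all 159 families; the circles stay between -0.57 (tej) and 0.92 (piwi) while the squares reach 5.20 (shu).

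The largest median difference of the 8 families was 0.92 in the piwi knockdown, where the germline comparison families had a median of 4.10 and all families 0.43. The lowest was -0.57 in the tej knockdown, where all families had a median of -0.29. In the shu knockdown the errantivirus families had a median of 0.50 and the germline comparison families 5.20. By count, the piwi knockdown held 4 of 8 errantivirus families at 2-fold or more, against 26.4% of all families, the zuc knockdown 3 of 8 against 26.4%, and the shu knockdown 2 of 8 against 27%. All 18 calls fell on 5 of the families, with 10 for gypsy, 3 for Idefix, 2 each for Tirant and '17.6', and 1 for '297'.

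**Figure D2:**
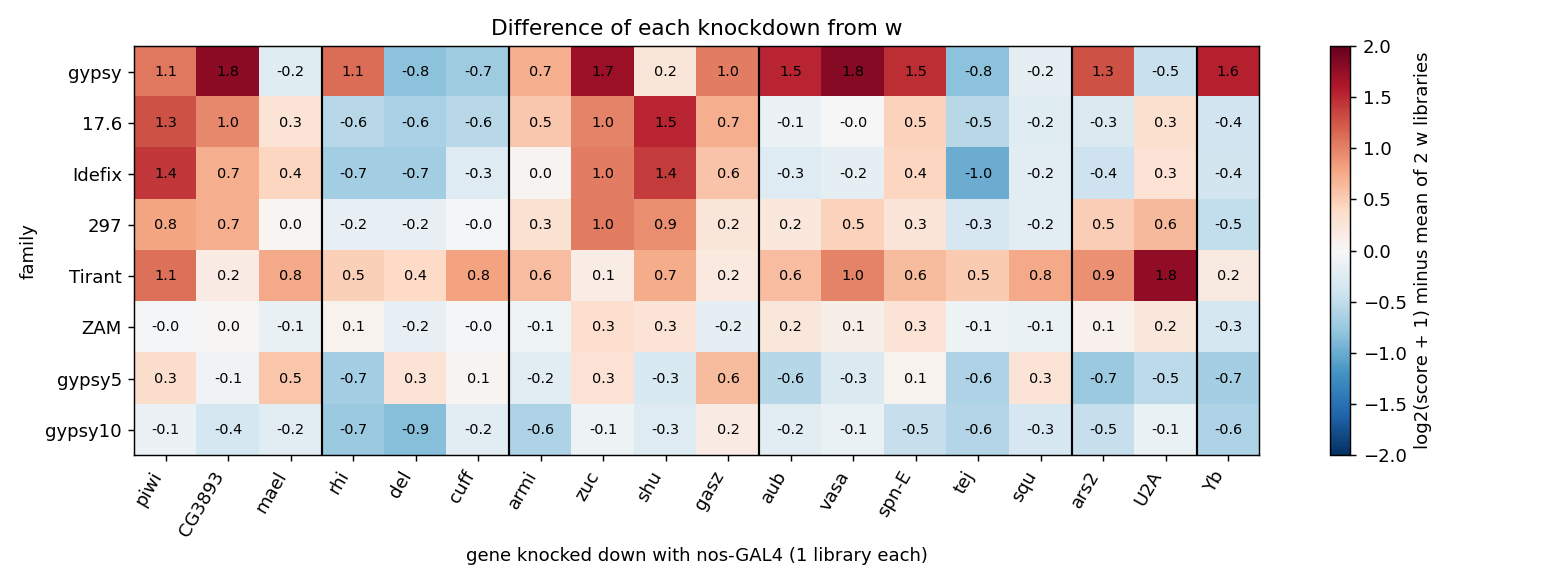
Log2(score + 1) of each errantivirus family (rows) in each knockdown (columns) minus the mean of the 2 w libraries, in red where higher and in blue where lower; vertical lines separate the classes of target genes. The row of gypsy holds 10 of the 18 values at 1 or more, the rows of '17.6', Idefix and '297' share their reds in the piwi, CG3893, zuc and shu columns, and ZAM has none beyond 0.34 in size.

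The level of gypsy, the namesake of the group and the element that flamenco was first known to restrain, varied most. Its score was 693 in the vasa knockdown, 679 in CG3893, 643 in zuc, 578 in Yb, 565 in aub, 547 in spn-E and 476 in ars2. It was 425 in rhi, 407 in piwi, 398 in gasz, 325 in armi and 232 in shu. In squ it was 171, in mael 166, in U2A 143, in cuff 119, and in del and tej 110 each, against 226 and 170 in the w libraries. Thus 12 knockdowns lay above both w libraries, 5 below both and 1 between them, a 6.30-fold range. The classes of target genes did not order these values. Within the cluster factors rhi stood at 425 against 119 for cuff and 110 for del, and within the nuage genes vasa held the highest score of the series and tej, with del, the lowest.

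The Yb knockdown was among the libraries with high gypsy. There gypsy was 1.56 above w on the log2 scale, while none of the 6 germline comparison families was 2-fold higher and their values ran from -0.77 to -0.10. Of all 159 families 6 were at least 2-fold higher in the Yb library. Besides gypsy they included the gypsy-group family gypsy7 at 1.37 and Fw2, the highest, at 3.16. Over all 18 knockdowns gypsy averaged 377 ± 211 (SD, n = 18) against 198 ± 39.6 for w (SD, n = 2), a log2 difference of 0.67 (SE 0.67, limma adjusted p = 0.596). The spread between targets was as large as the difference.

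By the Pearson correlation of log2(score + 1) over the 20 nos-GAL4 libraries, the families most like gypsy were gypsy7, another family of the gypsy group, with r = 0.911, and Rt1b, a non-LTR element, with r = 0.891. The median r of gypsy with all other families was 0.205. Both were high where gypsy was highest. With 1 library per target, an effect of the knockdown cannot be told apart from other differences between the libraries. The score of gypsy7 was 361 in vasa, 314 in zuc and 273 in CG3893, against 27 in tej and 30 in del, and 73 and 47 in the w libraries. The score of Rt1b was 2904 in vasa and 2903 in zuc, against 114 in del and 123 in cuff, and 179 and 221 in w.

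**Figure D3:**
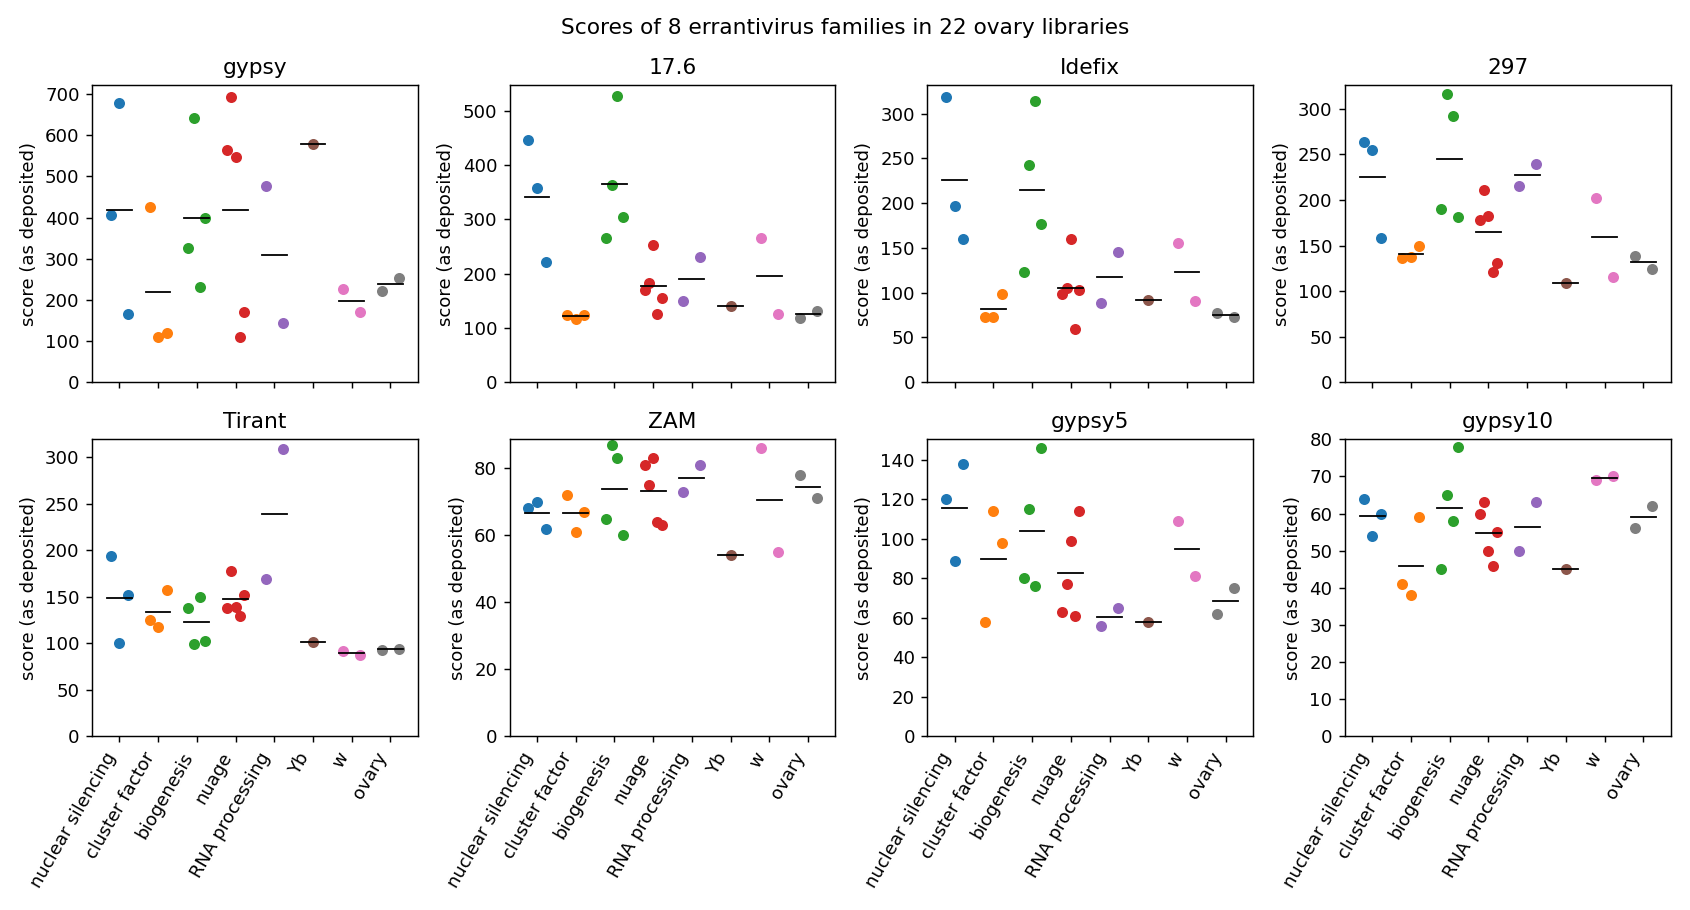
Deposited scores (y axes, linear from 0) of the 8 errantivirus families in 22 libraries, by class of target gene (x axis), with w and ovary at the right. Each point is a library and each bar the mean of its class; for '17.6' and Idefix the nuclear silencing points lie above all cluster factor points, for Tirant every knockdown lies above both w points, and gypsy is scattered within classes.

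The families '17.6', Idefix and '297' varied together across libraries. In '17.6' the score was 527 in shu, 446 in piwi, 364 in zuc, 358 in CG3893 and 304 in gasz, and between 117 (del) and 266 (armi) in the other 13 knockdowns, against 266 and 126 in w. Idefix had 319 in piwi, 314 in shu, 243 in zuc and 197 in CG3893, and between 59 (tej) and 177 (gasz) in the others, against 155 and 91 in w. In '297' the highest scores were 316 in zuc, 292 in shu, 264 in piwi and 255 in CG3893, and the lowest was 109 in Yb, against 202 and 116 in w. The same 4 knockdowns, piwi, CG3893, zuc and shu, thus held the 4 highest scores of Idefix, of '297' and of '17.6'. The median log2 difference of all families from w was also above 0 in them, at 0.43, 0.31, 0.52 and 0.40 in this order.

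Across the 20 libraries Idefix and '17.6' had a Pearson r of 0.960 and a Spearman rho of 0.940 on log2(score + 1). The permutation p was 1e-05 for both, the smallest that 100000 permutations can give, with adjusted p = 9.33e-05 for r and 0.00028 for rho over 28 pairs of families. Without the 2 libraries farthest from the median of Idefix r was 0.938. For '17.6' and '297', r was 0.840 and rho 0.803 (permutation p = 1e-05 and 4e-05, adjusted p = 9.33e-05 and 0.00056), and r was 0.792 without 2 libraries. For Idefix and '297', r was 0.803 and rho 0.747 (permutation p = 1e-05 and 0.00026, adjusted p = 9.33e-05 and 0.00243), and r was 0.744 without 2 libraries. The only other pair past 0.05 after adjustment for both measures was ZAM and '297', with r = 0.722 and rho = 0.716 (permutation p = 0.00035 and 0.00059, adjusted p = 0.00245 and 0.00413), and r = 0.612 without 2 libraries. The libraries share any scaling the authors applied, and each knockdown is a single library. The permutations take no correlation as their reference, while Idefix, '17.6' and '297' also correlated with families in general (median r of 0.416, 0.390 and 0.391). Their p-values therefore do not measure a likeness particular to these families, which may also share reads.

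**Figure D4:**
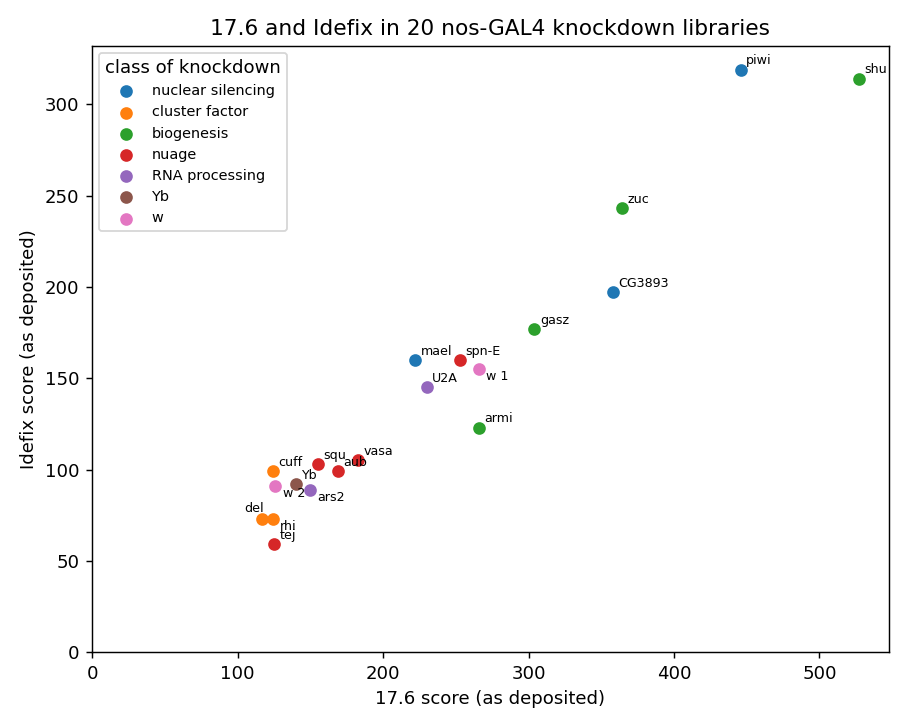
Score of Idefix (y axis) against score of '17.6' (x axis) in 20 nos-GAL4 libraries, both as deposited and linear from 0, coloured by class of target gene. The piwi and shu knockdowns lie at the upper right, the cluster factor knockdowns at the lower left, and the 2 w libraries (w 1 and w 2) lie apart from each other along the same line.

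Families outside the 8 followed the same course. The family most like both Idefix and '17.6' apart from each other was gypsy4 (r = 0.925 and 0.927), and the families most like '297' were roo (r = 0.921) and Stalker (r = 0.914). The median r with all other families was 0.416 for Idefix, 0.390 for '17.6' and 0.391 for '297'.

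As deposited, the piwi, CG3893 and mael libraries had higher '17.6' and Idefix scores than the rhi, del and cuff libraries. The classes were compared in a single limma fit over 20 libraries, in which knockdowns of different genes stand in for replicates of a class. They were chosen with earlier results of these data known, so the p-values below describe these libraries and are no independent test. In '17.6' the scores were 446 (piwi), 358 (CG3893) and 222 (mael), against 124 (rhi), 117 (del) and 124 (cuff). The means were 342 ± 113 and 122 ± 4.04 (SD, n = 3 each), a log2 difference of 1.43 (SE 0.35, limma adjusted p = 0.0219). In Idefix the scores were 319, 197 and 160 in the same order of nuclear silencing genes, against 73, 73 and 99 for the cluster factors, a log2 difference of 1.41 (SE 0.38, limma adjusted p = 0.0398). In neither family did the classes overlap.

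These were 2 of 8 errantivirus families called, against 5.03% of all families (8 of 159, all higher in the nuclear silencing knockdowns). The 2 calls are not independent, as '17.6' and Idefix varied together over the 20 libraries (r = 0.960). Over all families the count was 0 without rhi, del or piwi and 5 without CG3893. The family '297', at 264, 255 and 158 against 136, 137 and 149, had a log2 difference of 0.64 (SE 0.29, limma adjusted p = 0.176). The classes did not overlap in 3 of the 8 families ('17.6', Idefix and '297', which varied together) and in 28.3% of all families. Both calls were lost without the rhi, del, piwi or CG3893 library, with '17.6' at 1.44, 1.40, 1.21 and 1.36 (limma adjusted p = 0.0741, 0.0724, 0.156 and 0.0816) and Idefix at 1.33, 1.33, 1.13 and 1.47 (limma adjusted p = 0.143, 0.131, 0.257 and 0.0821). They were also lost with median-ratio scaling, at 1.03 and 1.01 (limma adjusted p = 0.0831 and 0.122), and after quantile normalization, at 0.66 and 0.83 (limma adjusted p = 0.313 and 0.244). The median difference of all families was 0.32 as deposited, -0.067 with median-ratio scaling and -0.016 after quantile normalization. As deposited but without families named for other species it was 0.48.

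**Figure D5:**
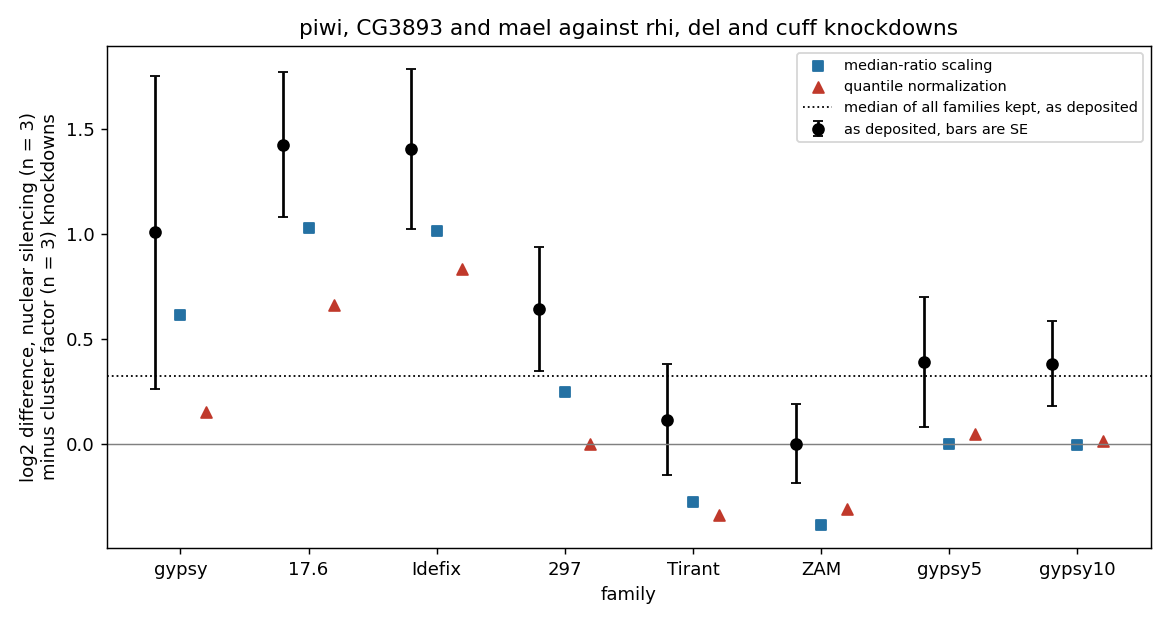
Log2 difference (y axis) between the piwi, CG3893 and mael knockdowns (n = 3) and the rhi, del and cuff knockdowns (n = 3) for each errantivirus family (x axis). Circles are the values as deposited with their SE, squares the values with median-ratio scaling and triangles after quantile normalization; '17.6' and Idefix stand at 1.43 and 1.41 as deposited, above the dotted median of all families at 0.32.

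Against w, none of the 8 families was called in any class as deposited. In the nuclear silencing knockdowns limma called 11.3% of all families (18), in the cluster factor knockdowns 3.14% (5), in the biogenesis knockdowns 22% (35) and in the nuage knockdowns 0.629% (1). Of the 8 errantivirus families, 2, 1, 1 and 1 had an unadjusted p under 0.05 in these classes, against 42, 24, 53 and 28 of all 159 families. The lowest adjusted p was that of '17.6' in the biogenesis knockdowns, whose scores were 266 (armi), 364 (zuc), 527 (shu) and 304 (gasz) against 266 and 126 in w, a log2 difference of 0.94 (SE 0.37, limma adjusted p = 0.0834). It was 1.48 without w replicate 1 (limma adjusted p = 0.0418) and 0.41 without w replicate 2 (limma adjusted p = 0.751). In the nuclear silencing knockdowns '17.6' stood at 0.84 (SE 0.39, limma adjusted p = 0.177) and Idefix at 0.86 (SE 0.43, limma adjusted p = 0.211), and in the cluster factor knockdowns at -0.59 (SE 0.39, limma adjusted p = 0.493) and -0.55 (SE 0.43, limma adjusted p = 0.574). All 6 germline comparison families were called higher in the nuclear silencing and in the biogenesis knockdowns, in the same fit. That list was chosen with earlier results of these data known. The median differences in the nuclear silencing and biogenesis knockdowns were 0.60 and 0.53 for the errantivirus families, against 3.58 and 3.73 for the germline comparison families. For all families they were 0.39 in both, and 0.51 in both without families named for other species. Counts over all families depended on single libraries. The nuclear silencing count was 0 without w replicate 2, 1 without piwi, 3 without w replicate 1 and 11 without mael, and the biogenesis count was 0 without w replicate 2, 17 without w replicate 1 and 22 without zuc. The cluster factor count was 11 without rhi, 1 without del, cuff or w replicate 2, and 2 without w replicate 1, and the nuage count was 0 without spn-E or w replicate 2, 4 without tej and 3 without squ. Rescaling lowered the median of all families and added calls among the 8 families, all lower than w. In the biogenesis knockdowns that median was 0.39 as deposited, 0.020 with median-ratio scaling and -0.029 after quantile normalization. With median-ratio scaling gypsy10 was called in the biogenesis knockdowns (-0.57, limma adjusted p = 0.0318), where 18 of all families were called higher and 11 lower. After quantile normalization gypsy10 was called in the cluster factor (-0.58, limma adjusted p = 0.0369), nuclear silencing (-0.57, limma adjusted p = 0.0404) and biogenesis knockdowns (-0.55, limma adjusted p = 0.0296), and '17.6' in the cluster factor knockdowns (-1.25, limma adjusted p = 0.0201). Over all families, as deposited, all but 1 of the nuclear silencing and biogenesis calls were higher than w. After quantile normalization 12 were higher and 12 lower for nuclear silencing, and 12 higher and 17 lower for biogenesis. For cluster factors 9 were higher and 11 lower after quantile normalization, against 5 higher and 0 lower as deposited.

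As deposited, Tirant was the family of the 8 that lay above w throughout. Its score ran from 99 (zuc) over a median of 138.5 to 308 (U2A) in the 18 knockdowns, against 92 and 87 in the w libraries and 93 and 94 in ovaries. All 18 knockdowns exceeded both w libraries, which held for 4 of 159 families (2.52%), the others being R2-element, gtwin and gypsy12. The 2 w scores of Tirant lay close together (SD 3.54), and the lowest knockdowns, zuc, CG3893 and Yb at 99, 100 and 101, were near them. The log2 difference between the 18 knockdowns and w was 0.65 (SE 0.29, limma adjusted p = 0.299). It was 0.46 with median-ratio scaling and 0.36 after quantile normalization. The biogenesis class had the lowest difference, at 0.43 as deposited, 0.050 with median-ratio scaling and -0.17 after quantile normalization. The other classes stayed positive.

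The splicing factor knockdown of U2A held the highest Tirant score, 308, followed by piwi with 194, vasa with 178 and ars2 with 169. In the same U2A library the median of the 6 germline comparison families was 0.069, and none of them was 2-fold higher than w. Of all 159 families 9 were at least 2-fold higher there. The largest difference was 3.87 in blood, with a score of 4467 against 401 and 232 in w. The families most like Tirant were Dsub_bilbo, named for another species, with r = 0.754, and blood, with r = 0.463, against a median of 0.108.

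ZAM, whose silencing in follicle cells depends on flamenco, stayed close to the control. Its score ran from 54 (Yb) to 87 (zuc) with a median of 69 in the 18 knockdowns, against 86 and 55 in w and 78 and 71 in ovaries. The knockdowns averaged 70.5 ± 9.48 (SD, n = 18) and w 70.5 ± 21.9 (SD, n = 2), a log2 difference of 0.023 (SE 0.17, limma adjusted p = 0.952). Of the 18 knockdowns, 16 lay between the 2 w libraries. Its values were closest to those of FB, a foldback element, with r = 0.841, and to '297'.

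The numbered families gypsy5 and gypsy10 were 2-fold from w in no knockdown. In gypsy5 the scores ran from 56 (ars2) to 146 (gasz) with a median of 84.5, against 109 and 81 in w, a log2 difference of -0.12 (SE 0.32, limma adjusted p = 0.872). In gypsy10 the scores ran from 38 (del) to 78 (gasz) with a median of 56.5, against 69 and 70 in w. Of the 18 knockdowns 17 were below both w libraries for gypsy10, against 25.9% of all pairs of family and knockdown. The 2 w scores of gypsy10 lay close together (SD 0.71), which leaves little room between them. Between the 18 knockdowns and w the log2 difference of gypsy10 was -0.35 (SE 0.20, limma adjusted p = 0.388). After quantile normalization this difference was -0.55 (limma adjusted p = 0.0119). The score of gypsy10 was highest in the library with the fewest genome-mapped reads, and over the 20 libraries it had r = -0.606 and rho = -0.512 with log2 genome-mapped reads (permutation p = 0.0042 and 0.0223, adjusted p = 0.0336 and 0.178 over 8 families), with r = -0.577 without 2 libraries. The part of depth in its level was not tested.

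Taking the 18 knockdowns as a single group, limma called 0 of 159 families against w (0%), with 23 at an unadjusted p under 0.05, of which 1 was an errantivirus family, Tirant. The spread in this test is that between target genes, and it also passed over the germline comparison families, such as Burdock with a log2 difference of 3.42 (SE 1.21, limma adjusted p = 0.291) and HeT-A with 2.76 (SE 1.27, limma adjusted p = 0.299). Over all pairs of family and knockdown, 57 of 144 errantivirus pairs (39.6%) lay above both w libraries, against 45.8% of all pairs and 79.6% of pairs with the germline comparison families. In the lower direction, 25.9% of all pairs lay below both w libraries.

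The w knockdown was also compared with whole ovaries that carry no stated knockdown. Idefix had 155 and 91 in w against 77 and 73 in ovaries, a log2 difference of 0.66 (SE 0.29, limma adjusted p = 0.284). In '17.6' the scores were 266 and 126 against 119 and 132, a difference of 0.54 (SE 0.40, limma adjusted p = 0.496), and in gypsy5 they were 109 and 81 against 62 and 75, a difference of 0.46 (SE 0.22, limma adjusted p = 0.302). The gypsy score was 226 and 170 against 222 and 254, a difference of -0.28 (SE 0.24, limma adjusted p = 0.532). The score of '297' was 202 and 116 in w against 139 and 124 in ovaries, and that of gypsy10 69 and 70 against 56 and 62.

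In this comparison limma called 0 of 159 families (0%), with 28 at an unadjusted p under 0.05, none of them among the 8; 10 were called without w replicate 1 and 12 without w replicate 2. The groups did not overlap for Idefix, gypsy5 and gypsy10, which were higher in w (3 of 8, against 42.8% of all families), and for Tirant, which was lower (1 of 8, against 8.18%). The w libraries differed between themselves more than the ovary libraries did. Replicate 1 exceeded replicate 2 by 2.11-fold for '17.6', 1.74-fold for '297', 1.70-fold for Idefix and 1.56-fold for ZAM, with a median of 1.13-fold over all families, while in ovaries the ratio of replicate 1 to replicate 2 ran from 0.83 (gypsy5) to 1.12 ('297') in the 8 families. Of all families 6.92% differed 2-fold or more between the w libraries and 0 between the ovary libraries. The w libraries lay at 266 and 126 for '17.6', and 9 of its 18 knockdown scores lay within that range.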

How the data were processed

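Total RNA depleted of ribosomal RNA was sequenced, per the labels' protocols. Tools and build, per the submitters' processing notes and with no role stated, were TopHat, Bowtie, Cufflinks, CASAVA 1.3 and dm3. The transposon values are deposited whole numbers per family, treated as a score: the tej library, with the most genome-mapped reads, had a lower summed score (18101) than the gasz library with the fewest (36673), and no source calls the values raw counts, so no count test or counting interval was used. The ovary gene values are FPKM made by the authors and served as a marker check. A family was kept where 2 or more libraries had a score of at least 10 (159 of 176, 40 of them named for other species) and used as log2(score + 1) without further normalization; the pseudocount of 1 slightly understates differences of low scores. Groups came from sample titles. Comparisons used limma 3.58.1 in R 4.3.3 (lmFit, eBayes with trend), 2-sided, with Benjamini-Hochberg adjustment over all families kept and calls under 0.05. The script was tested on simulated data. w and ovary have 2 replicates each, not stated to be separate animals, so p-values measure only the spread between these libraries. Named families are the 8, their 2 closest by correlation over 20 libraries, and 2 comparison lists (Stalker3 was absent by that name); a few others are named where a count is small. The families, classes and lists were chosen with earlier results of these data known. Alternatives were a pseudocount of 10, median-ratio scaling, quantile normalization, no filter, families of other species left out, each library left out, and a replicate block. Sequences of the elements were not used here.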

Additional observations from a re-analysis of the deposited data

Results flagged for a closer look

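The differences of '17.6' (log2 difference 1.43) and Idefix (1.41) between the nuclear silencing and the cluster factor knockdowns were singled out because the effects of these classes differed in a direct limma test (adjusted p = 0.0219 and 0.0398). Leaving out rhi, del, piwi or CG3893, or rescaling the libraries, ended both calls, as given in the report, and the cause was not tested. The summed scores of all families were 56107 (piwi), 38281 (CG3893) and 35251 (mael), against 21972 (rhi), 44777 (del) and 39815 (cuff). No library stood apart by Dixon's criterion in the 16 sets of 4 biogenesis or 5 nuage scores examined, of which chance flags about 1 in 20.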

How the results depend on the processing

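Of 288 values of the 8 families under alternatives that keep all libraries, 246 kept their direction and side of the threshold, and of 424 with a library left out 384 did. The replicate block, with w and ovary replicates of equal number in a block, called 16 families between w and ovary (12 higher, 4 lower), none of the 8; equal numbers do not pair these libraries, as deviations correlated at 0.044, and it changed no call of the 8.

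With median-ratio scaling the calls numbered 1 between w and ovary, 7 for nuclear silencing, 10 for nuage, and 1 for nuclear silencing minus cluster factors, and 10 errantivirus pairs were 2-fold from w. After quantile normalization they numbered 10 for the 18 knockdowns, 20 for cluster factors, 15 for nuage and 0 for nuclear silencing minus cluster factors. With no filter nuage had 2. The causes were not tested. Without single libraries the calls ranged from 0 to 12 between w and ovary, 0 to 1 for the 18 knockdowns, 1 to 11 for cluster factors, 0 to 12 for nuclear silencing, 0 to 31 for biogenesis, 0 to 4 for nuage and 0 to 11 for nuclear silencing minus cluster factors, with 446 to 636 pairs of any family and 20 to 29 errantivirus pairs past 2-fold.

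Log2 differences that were not called changed sign as follows. With median-ratio scaling they were, for the 18 knockdowns, -0.17 (ZAM) and -0.072 (Idefix); for nuclear silencing -0.12 (gypsy5); for biogenesis -0.29 (ZAM) and -0.28 (gypsy5); for nuage -0.064 (ZAM) and -0.070 ('297'); and for nuclear silencing minus cluster factors -0.39 (ZAM), -0.28 (Tirant), -0.0014 (gypsy5) and -0.0052 (gypsy10). After quantile normalization they were, for the 18 knockdowns, -0.35 (gypsy), -0.23 (ZAM), -0.35 (Idefix), -0.82 ('17.6') and -0.60 ('297'). For nuclear silencing they were -0.71 (gypsy), -0.59 ('17.6'), -0.74 ('297') and -0.24 (gypsy5). For biogenesis they were -0.74 (gypsy), -0.36 (ZAM), -0.076 (Idefix), -0.17 (Tirant), -0.61 ('17.6'), -0.62 ('297') and -0.44 (gypsy5). For nuage they were -0.26 (gypsy), -0.12 (ZAM) and -0.70 ('297'), and for nuclear silencing minus cluster factors -0.31 (ZAM) and -0.34 (Tirant). The median of all families moved by this scaling, for the 18 knockdowns to -0.018, against 0.17 as deposited.

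Without single libraries the ranges that crossed 0 were, for the 18 knockdowns, -0.33 to 0.74 ('17.6'), -0.14 to 0.66 ('297'), -0.26 to 0.51 (Idefix), -0.30 to 0.34 (ZAM) and -0.33 to 0.089 (gypsy5). For nuage they were -0.62 to 0.45 ('17.6'), -0.32 to 0.47 ('297'), -0.62 to 0.14 (Idefix) and -0.24 to 0.40 (ZAM). For cluster factors they were -0.52 to 0.27 ('297'), -0.37 to 0.27 (ZAM), -0.33 to 0.17 (gypsy5) and -0.77 to 0.20 (gypsy). Between w and ovary they were -0.18 to 0.62 ('297') and -0.43 to 0.21 (ZAM). For nuclear silencing minus cluster factors they were -0.10 to 0.37 (Tirant) and -0.060 to 0.058 (ZAM), for biogenesis -0.24 to 0.40 (ZAM) and -0.12 to 0.31 (gypsy5), and for nuclear silencing -0.36 to 0.27 (ZAM). Depth behind single scores is unknown, because the sources used here do not state their unit.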

Other observations

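The 8 families made up a smaller share of the summed scores in every knockdown but ars2 and Yb than in either w library. Their share was 1.72% in del, 2.19% in cuff and 2.21% in shu, and 8.60% in Yb, against 7.85% and 6.33% in w, and 7.33% and 8.05% in ovaries. Their own sum was 768 in del, 872 in cuff and 1732 in shu, against 1205 and 796 in w. Besides Tirant, the gypsy-group family gtwin lay above both w libraries in all 18 knockdowns, with a log2 difference of 0.60, as did gypsy12 with 1.65.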
